A study of Homo sapiens with 13 samples.

Results

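Genes of the synaptic vesicle and of regulated exocytosis were followed in 2 small cell lung cancer (SCLC) lines under FHD-286, a small molecule that inhibits SMARCA4 and SMARCA2, the ATPases of the SWI/SNF chromatin remodeling complexes. The set was a fixed list of 45 gene symbols out of 56831 gene entries in the tables, chosen by function and sorted into 9 families. All 45 symbols were present in the tables and matched a single locus of the GENCODE release 44 annotation on hg38. RNA was sequenced from H82 cells, a line of the SCLC-N subtype marked by *NEUROD1*, and from H146 cells, a line of the SCLC-A subtype. Both lines were given as wild type and grew in RPMI1640 medium with 10% fetal bovine serum. Untreated H82 cells had 3 libraries and H82 cells given 100 nM FHD-286 for 14 days had 3, with the drug renewed every 48 h. Untreated H146 cells had 3 libraries and H146 cells given the same dose for the same time had 4. The labels give the control as no treatment and name no vehicle. Each condition is 1 line, so a difference between the lines is a difference between 2 cultures and not between subtypes.

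Regulated exocytosis is the route by which neurons release transmitter and neuroendocrine cells release peptide hormones. A vesicle is filled, tethered by RAB3 GTPases and the scaffold proteins of the active zone, and primed by UNC13 and CAPS proteins. The SNARE proteins syntaxin, SNAP25 and VAMP then fuse it with the plasma membrane when a synaptotagmin senses calcium. SCLC cells with a neuroendocrine phenotype carry much of this machinery, and synaptophysin (*SYP*) is one of the markers by which pathologists recognize the disease.

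The treated libraries were not uniform. A set of 46 genes held at least 50 TPM (a level per transcript length, scaled to the same total in each library) in every untreated H146 library and at most 0.1 TPM in every untreated H82 library. In treated H82 replicates 1, 2 and 3 their summed level was 0.551%, 3.47% and 0.253% of that in untreated H146, while in untreated H82 it was at most 0.00824%. The 5 epithelial markers summed to 15.7, 114 and 9.17 TPM in these treated replicates, against 1.57 to 3.61 TPM in untreated H82. In H146 the same markers summed to 2234 to 2404 TPM untreated and 575 to 647 TPM treated. The reverse set of 29 H82 genes stayed at or below 0.0657% of its own line's level in all H146 libraries. Treated H146 replicates 1 and 2 lay together on one side of replicates 3 and 4 for 39 of the 43 members tested (90.7%) and for 66.6% of all genes tested. Replicates 1 and 2 were the higher pair for 34 members (79.1%) and for 26.7% of all genes. Of the 7 neuroendocrine markers, 7 were at 1 TPM or more in every H82 library, and 6 in every H146 library, where *NEUROD1* was between 0.129 and 0.521 TPM. The 5 fibroblast markers summed to 0.912 to 1.84 TPM in untreated and 7.05 to 33.9 TPM in treated H82, and to 6.68 to 8.59 and 16.6 to 32.0 TPM in H146. The 5 blood cell markers summed to at most 17.97 TPM in any library, and *CD3E* was listed at 0 in all H82 libraries. The share of TPM on mitochondrial genes was 22.1% to 24.1% in untreated and 12.3% to 14.9% in treated H82, and 7.56% to 8.86% and 3.82% to 11.4% in H146. The part of these differences in the results was not tested.

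Most of the machinery was lower in treated H82. Of the 39 members tested there, 26 fell and 4 rose, where 45.5% of all genes tested were called lower and 13.1% higher. The median log2 fold change was -1.14 over the members and -0.56 over all 19770 genes tested. Fold changes are on the log2(TPM + 1) scale, which understates changes of low genes, and calls are at an adjusted *p* under 0.05 (limma, Benjamini-Hochberg over all genes tested). In H146, 19 of 43 members fell and 8 rose, against 15.5% lower and 32.5% higher among all genes. The number that rose was 4 without untreated replicate 3, where 22.5% of all genes were called higher. The median was -0.33 over the members and 0.25 over all 19585 genes. The members were thus called lower more often than all genes in both lines, as 66.7% of those tested in H82 and 44.2% in H146. With median of ratios scaling the members called lower and higher were 21 and 6 in H82 and 22 and 4 in H146, and with quantile normalization they were 19 and 7 in H82 and 19 and 4 in H146. All genes called lower and higher were 32.9% and 24.2% in H82 and 25.1% and 21.3% in H146 with the first scaling, and 24.6% and 26.6% in H82 and 20.8% and 23.7% in H146 with the second. The first scaling moved the median of all genes to -0.14 in H82 and -0.02 in H146, and that of the members to -0.66 and -0.65. The second moved the median of the members to -0.72 in H82 and -0.42 in H146. In RNA from a whole culture, fewer expressing cells and less RNA per cell cannot be told apart.

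The loss in H82 lay mainly among members that were abundant beforehand. Of 24 tested members at 10 TPM or more in untreated H82, 20 fell and 1 rose, with a median of -1.46. Of the 15 members under 10 TPM, 6 fell and 3 rose, with a median of -0.14. Over all genes the order was the other way, with 41.9% lower at 10 TPM or more and 49.3% lower under 10 TPM. In H146, 17 of 32 members at 10 TPM or more fell and 5 rose, against 21.1% lower and 26.5% higher among all genes at that level. The untreated level is one arm of the contrast, so these splits are descriptions. The summed level of all 45 members was 1160 to 1185 TPM in untreated H82 and 494 to 653 TPM in the treated libraries. In H146 it was 2159 to 2453 TPM untreated and 1579 to 2287 TPM treated, so that the H82 groups were well apart and the H146 groups overlapped.

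**Figure D1:**
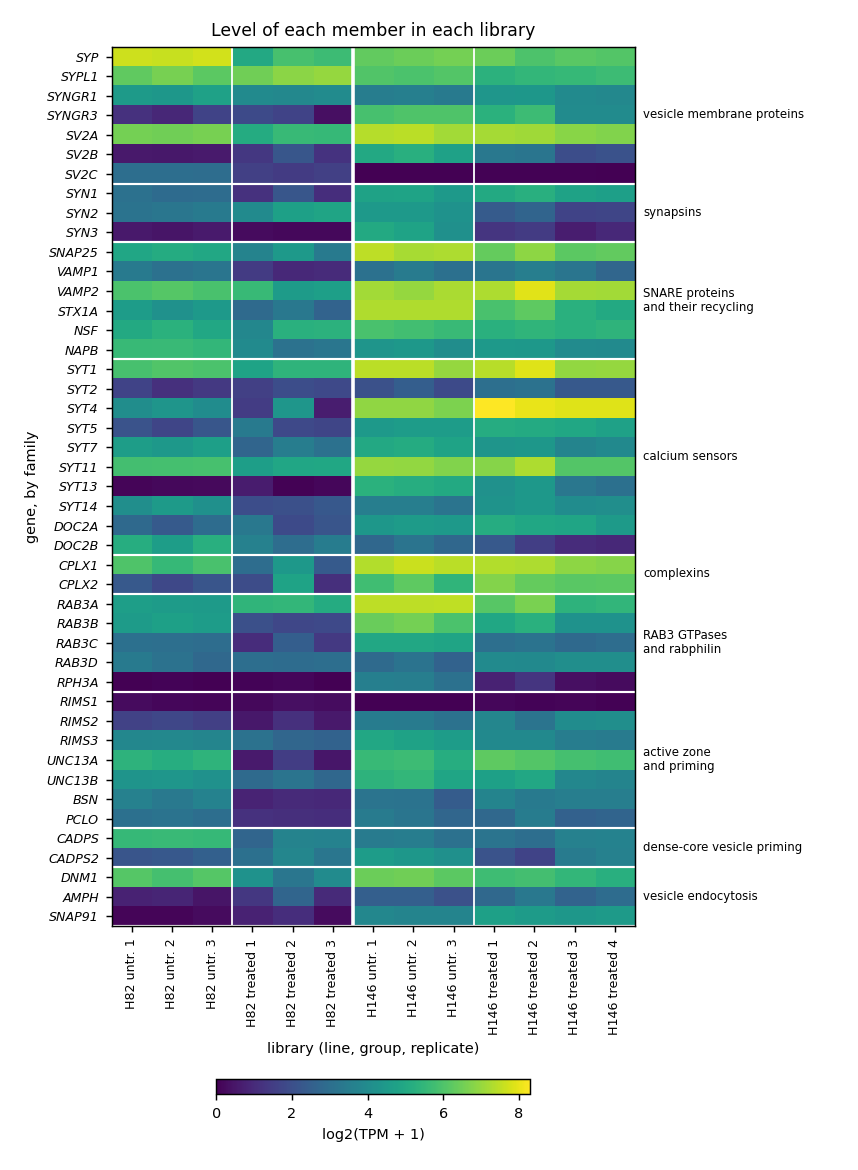
Heat map of log2(TPM + 1) of the 45 members, in rows by family, in the 13 libraries, in columns by line, group and replicate, with lighter colors for higher levels. The *UNC13A* row darkens from untreated to treated H82 and stays light in H146, *SYN3* and *RPH3A* darken in treated H146, and *SYT4* is brightest in treated H146.

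The active zone and priming family, which holds vesicles at the release site and makes them ready to fuse, fell throughout in H82. All 6 tested members fell there, where 45.5% of all genes were called lower. In H146 2 fell, 2 rose and 2 did not pass the test, against 15.5% lower and 32.5% higher among all genes. *UNC13A* encodes Munc13-1, a priming factor of glutamatergic synapses, and was the most abundant member of the family in both untreated lines. It stood at 40.7, 35.3 and 40.9 TPM in the untreated and at 0.502, 1.84 and 0.410 TPM in the treated H82 libraries. The groups were far apart, and even the highest treated library, replicate 2, held a small fraction of any untreated one. The mean fell 42.5-fold, with a log2 fold change of -4.45 ± 0.29 (SE; adjusted *p* = 0.000128), the largest fall of the set. Without replicate 2 the log2 fold change was -4.78. In H146 *UNC13A* was at 47.3, 50.3 and 34.7 TPM untreated and at 73.9, 67.0, 56.5 and 52.9 TPM treated. All treated H146 libraries were above the untreated ones, but by little, with a log2 fold change of 0.50 ± 0.17 (adjusted *p* = 0.0413). That rise did not pass the threshold under median of ratios (0.19) or quantile normalization (0.36), nor with no filter on low values (adjusted *p* = 0.0781) or without treated replicates 1 and 2 (0.32; adjusted *p* = 0.117). It was also lost when untreated replicate 1 or 3 or treated replicate 1, 2 or 3 was left out (adjusted *p* from 0.0553 to 0.146). The difference between the lines, the H146 change minus the H82 change, was 4.95 (95% interval 4.22 to 5.69; adjusted *p* = 5.58e-07).

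*BSN* encodes bassoon, a giant scaffold protein of the active zone, and moved much as *UNC13A* did. Its levels in H82 were 11.6, 9.24 and 11.9 TPM untreated and 0.766, 1.001 and 0.959 TPM treated. The treated values were tight and an order of magnitude below the untreated ones, a 12.0-fold lower mean and a log2 fold change of -2.64 ± 0.19 (adjusted *p* = 0.000151). In H146 *BSN* was at 8.14, 7.86 and 4.33 TPM untreated and at 12.3, 9.50, 10.7 and 10.7 TPM treated. The groups did not overlap, and the log2 fold change was 0.64 ± 0.21 (adjusted *p* = 0.0378). It missed the threshold under both other scalings and when either pair of treated replicates was left out, with adjusted *p* values of 0.0519 and 0.0951 in the latter, and with no filter on low values (adjusted *p* = 0.0728). It was lost as well without untreated replicate 3 (0.39; adjusted *p* = 0.101) and without treated replicate 1, 3 or 4 (adjusted *p* from 0.0654 to 0.0877). The other giant scaffold, piccolo (*PCLO*), fell in H82 from 7.45 ± 0.51 to 1.19 ± 0.06 TPM (SD, n = 3 each). In H146 it was at 8.01 ± 2.18 TPM (n = 3) untreated and 6.63 ± 2.39 TPM (n = 4) treated and did not pass the test (adjusted *p* = 0.450). *UNC13B*, which encodes Munc13-2, fell in both lines, by 1.35 in H82 and by 0.94 in H146 on the log2 scale. Its H146 groups overlapped, and the fall was 0.41 with treated replicates 1 and 2 alone, where it missed the threshold (adjusted *p* = 0.143). Leaving out any 1 untreated library or treated replicate 3 or 4 also lost the call (adjusted *p* from 0.0559 to 0.130). *RIMS3* fell by 1.02 in H82 and by 1.08 in H146, and the interval of the difference was -0.61 to 0.50. With quantile normalization its H82 fall was 0.34 and was not called (adjusted *p* = 0.144), while H146 then fell by more than H82 (-0.94; adjusted *p* = 0.00686), as it did with median of ratios (-0.80; adjusted *p* = 0.0269). *RIMS2* fell in H82 from a low level, 2.17 ± 0.22 to 0.71 ± 0.42 TPM, though its log2 fold change was 0.22 with quantile normalization. *RIMS1*, a central organizer of neuronal active zones, was at most 0.260 TPM in any library of either line.

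The sequence upstream of *UNC13A* and *BSN* was read because they had the largest falls of the family in H82. RefSeq promoter windows, from 250 bases before to 50 bases after the transcription start on GRCh38.p14, were found for 35 of the 45 members, with 52 windows in all. The windows were searched on both strands for TTCAGCACC and GGACAGC, the left and right parts of the element bound by the neuronal gene repressor REST, and for the E-boxes CAGCTG and CAGATG, letters bound by neural bHLH factors. TTCAGCACC was in 0.376% of all 35116 windows and in windows of 2 members, *UNC13A* and *SYN1*. GGACAGC was in 6.03% of all windows and in windows of 4 members, *UNC13A*, *BSN*, *RAB3C* and *RPH3A*. CAGCTG was in 17.9% of all windows and in 8 of the 52 member windows (15.4%), and CAGATG in 14.7% of all and in 7 of the 52 (13.5%). A match is a run of letters and not a measured binding site. In *UNC13A*, on the minus strand of chr19:17688340-17688604, both parts lie on the opposite strand with 8 bases between them, so that the run below reads as their reverse complement, and together they span the RefSeq start, from position -9 to 15. GENCODE release 44 begins the gene at position 17688365, so that there the element lies in the first exon. In *BSN*, on the plus strand of chr3:49554227-49554476 and so wholly upstream of the gene, GGACAGC begins at position -121, and TTCAGCACC was not found there. Capitals mark the matches:
UNC13A: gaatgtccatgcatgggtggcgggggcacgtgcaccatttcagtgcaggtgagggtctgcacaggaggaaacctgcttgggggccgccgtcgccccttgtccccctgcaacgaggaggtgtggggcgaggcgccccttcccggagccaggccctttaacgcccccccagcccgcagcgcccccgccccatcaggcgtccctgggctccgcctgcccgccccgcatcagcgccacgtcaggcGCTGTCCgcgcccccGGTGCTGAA
BSN: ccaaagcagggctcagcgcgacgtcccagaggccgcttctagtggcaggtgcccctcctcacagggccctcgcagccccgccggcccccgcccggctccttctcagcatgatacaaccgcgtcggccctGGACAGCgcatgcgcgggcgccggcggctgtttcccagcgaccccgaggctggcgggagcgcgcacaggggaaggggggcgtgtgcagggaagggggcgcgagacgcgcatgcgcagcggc

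Synapsins coat the vesicle surface and hold the reserve pool, and the 3 of them moved apart. *SYN2* stood at 7.93, 8.62 and 9.44 TPM in untreated and at 14.8, 25.1 and 28.01 TPM in treated H82. All treated libraries were above all untreated ones, with a log2 fold change of 1.25 ± 0.25 (adjusted *p* = 0.00490), the largest rise of the set in H82. In H146 it stood at 21.3, 21.4 and 17.9 TPM untreated and 4.21, 5.32, 2.21 and 2.36 TPM treated. There the groups were apart in the other direction, with a 5.73-fold lower mean and a log2 fold change of -2.28 ± 0.26 (adjusted *p* = 0.000295). The difference between the lines was -3.53 (95% interval -4.36 to -2.70; adjusted *p* = 1.35e-05), and *SYN2* kept both calls under the 6 alternatives that used all libraries. *SYN1* went the opposite way in H82, falling from 6.92 ± 0.62 to 2.03 ± 1.45 TPM (log2 fold change -1.48, adjusted *p* = 0.00737), with treated replicate 2 at 3.70 TPM and the others at 1.25 and 1.13 TPM. With quantile normalization the log2 fold change was -0.55 and was not called (adjusted *p* = 0.208). In H146 *SYN1* was at 24.9 ± 3.32 TPM untreated and 30.1 ± 5.49 TPM treated, and its groups overlapped. *SYN3* was the most abundant synapsin of untreated H146, at 31.7, 27.4 and 17.03 TPM, and was at 1.43, 1.74, 0.591 and 0.919 TPM in the treated libraries. This was the largest fall of the set in H146, 21.7-fold in the mean and -3.59 ± 0.27 on the log2 scale (adjusted *p* = 4.04e-05). In H82 *SYN3* was at most 0.526 TPM in every library.

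The upstream bases of *SYN1* and *SYN2* are shown since these members of 1 family were called in opposite directions in H82 as deposited. The *SYN1* run lies on the minus strand of chrX:47619858-47620107 and the *SYN2* run on the plus strand of chr3:12004138-12004387, each ending at the base before the gene. In *SYN1*, TTCAGCACC begins at position -233, counted from the start, and is followed after 2 bases by GGACAG, the right part without its last letter, which was looked for after the sequence had been seen. CATCTG, the other strand of CAGATG, begins at position -37, and a CAGCTG lies past the printed run. None of the 4 motifs was found in the *SYN2* window, which says only that these letters are not there. Capitals mark the matches:
SYN1: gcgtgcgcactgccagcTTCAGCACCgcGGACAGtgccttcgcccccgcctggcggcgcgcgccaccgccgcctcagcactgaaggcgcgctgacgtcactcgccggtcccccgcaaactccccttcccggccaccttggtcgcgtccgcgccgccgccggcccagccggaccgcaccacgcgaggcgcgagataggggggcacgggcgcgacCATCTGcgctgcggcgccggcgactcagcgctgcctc
SYN2: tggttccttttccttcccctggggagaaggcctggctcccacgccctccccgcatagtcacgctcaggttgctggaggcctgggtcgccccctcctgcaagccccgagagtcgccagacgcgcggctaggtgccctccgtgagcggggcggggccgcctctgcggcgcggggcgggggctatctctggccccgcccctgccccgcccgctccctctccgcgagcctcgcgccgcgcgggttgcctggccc

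The proteins of the vesicle membrane showed the same divided pattern. In H82, 4 of 7 fell and 1 rose, near the 45.5% lower and 13.1% higher among all genes. In H146, 3 of 6 tested fell and 1 rose, against 15.5% and 32.5%. Synaptophysin (*SYP*) was the most abundant member of the whole set in untreated H82, at 202, 193 and 212 TPM, and was at 31.5, 58.1 and 50.7 TPM in the treated libraries. In H146 the groups overlapped, at 78.2 to 93.3 TPM untreated and 62.7 to 85.9 TPM treated, and the change did not pass the test (log2 fold change -0.26, adjusted *p* = 0.150). It passed with median of ratios (-0.57; adjusted *p* = 0.0143) and without treated replicates 1 and 2 (-0.30; adjusted *p* = 0.0357). *SYPL1*, the widely expressed relative of synaptophysin, fell in H146, from 64.4 ± 2.54 to 45.1 ± 4.76 TPM. In treated H82 *SYPL1* was at 89.0, 114 and 126 TPM against 77.2, 94.98 and 73.7 TPM untreated and did not pass the test (adjusted *p* = 0.0908), though it did without treated replicate 1 (0.55; adjusted *p* = 0.00930) and with median of ratios (0.90; adjusted *p* = 0.00292). The difference between the lines in *SYPL1* was -0.92 (95% interval -1.37 to -0.47).

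SV2 proteins are glycoproteins of the vesicle that bind synaptotagmin, and each of the 3 genes behaved in its own way. *SV2A* was the most abundant member of its family in untreated H146, at 160 ± 16.9 TPM (n = 3), against 124 ± 19.1 TPM (n = 4) in the treated cells, a change that did not pass the test (adjusted *p* = 0.0627). It passed with median of ratios (-0.70; adjusted *p* = 0.00829) and when treated replicate 1 or 2 was left out (adjusted *p* = 0.0442 and 0.0357). In H82 it fell from 93.2 ± 3.59 to 42.3 ± 7.65 TPM (log2 fold change -1.14, adjusted *p* = 0.00134). *SV2B* was at 0.493, 0.458 and 0.526 TPM in untreated H82 and at 1.53, 3.71 and 1.33 TPM in the treated libraries, with the highest value in replicate 2. Its rise of 1.02 ± 0.30 on the log2 scale (adjusted *p* = 0.0215) was 0.70 without replicate 2 (adjusted *p* = 0.0354). It was not called when any 1 of the untreated libraries was left out, with adjusted *p* values from 0.0544 to 0.0602. Nor was it called with no filter on low values (adjusted *p* = 0.0585). *SV2B* passed the filter in H82 through its treated libraries only, so a fall could not have been found there. In H146 *SV2B* fell from 31.3, 36.4 and 25.7 TPM to 8.93, 8.38, 2.91 and 3.30 TPM. The groups did not overlap, the mean was 5.29-fold lower, and the log2 fold change was -2.34 ± 0.36 (adjusted *p* = 0.00124). *SV2C* was expressed in H82 alone, where it fell from 6.91 ± 0.15 to 1.87 ± 0.13 TPM, and was at most 0.0443 TPM in any H146 library. With quantile normalization that fall was 0.49 on the log2 scale and was not called (adjusted *p* = 0.0563), against 1.46 as deposited. Synaptogyrins are small relatives of synaptophysin. *SYNGR1* fell in H82 from 22.1, 20.2 and 25.7 to 14.7, 13.8 and 15.2 TPM and rose in H146 from 10.4, 11.0 and 9.81 to 19.6, 20.0, 14.5 and 13.8 TPM. Neither of these calls held under the other scalings, where the log2 fold changes were -0.14 and -0.16 in H82 and 0.34 and 0.39 in H146. The H82 call was also lost without untreated replicate 3 (adjusted *p* = 0.0643), and the H146 call without untreated replicate 1 or 3 (adjusted *p* = 0.0506 and 0.0538). *SYNGR3* fell in H146, from 62.0 ± 3.59 TPM to 38.4, 51.2, 15.1 and 15.04 TPM. The fall was 0.47 on the log2 scale with treated replicates 1 and 2 alone and 1.97 with 3 and 4 alone. The call was lost without any 1 untreated library and without treated replicate 3 or 4 (adjusted *p* from 0.0733 to 0.114).

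**Figure D2:**
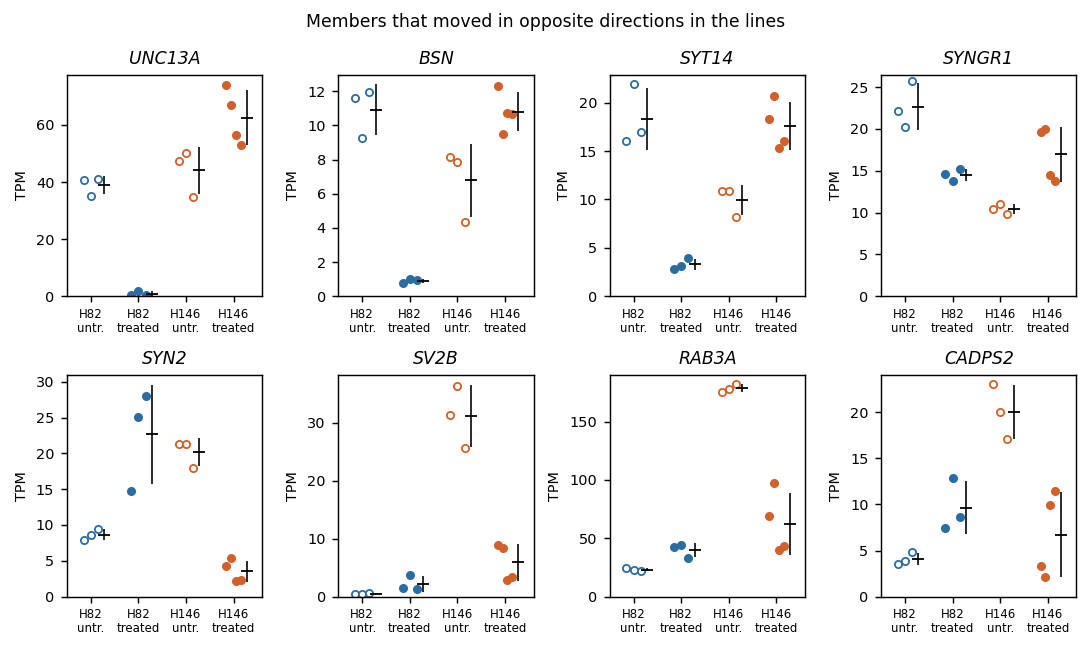
TPM of the 8 members with opposite calls in the lines, 1 panel each, with a linear axis from 0. Points are libraries (open untreated, filled treated, blue H82, orange H146) and bars are mean ± SD. *UNC13A*, *BSN*, *SYT14* and *SYNGR1* were lower in treated H82 and higher in treated H146, and *SYN2*, *SV2B*, *RAB3A* and *CADPS2* the reverse.

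RAB3 GTPases sit on secretory vesicles in their GTP-bound form, and rabphilin (*RPH3A*) binds them. In H82, 2 of the 4 tested genes fell and 1 rose, against 45.5% lower and 13.1% higher among all genes, so the falls were near that share. In H146 all 5 were called, 4 lower and 1 higher, against 15.5% and 32.5%. *RAB3A*, the main neuronal form, was the most abundant member of the set in untreated H146, at 176, 178 and 182 TPM. Treated H146 libraries held 69.5, 97.2, 39.8 and 43.4 TPM, all well below, with a log2 fold change of -1.59 ± 0.28 (adjusted *p* = 0.00258). The fall was 1.11 with treated replicates 1 and 2 alone and 2.08 with 3 and 4 alone. In H82 *RAB3A* rose from 24.4, 22.5 and 21.8 to 42.2, 44.4 and 33.3 TPM. These groups did not overlap either, with a log2 fold change of 0.77 ± 0.16 (adjusted *p* = 0.00525), so that the treated lines lay closer together than the untreated ones. *RAB3B*, the most abundant of the family in untreated H82, fell in both lines. Its H82 values were 22.4, 25.4 and 23.0 TPM untreated and 3.03, 2.38 and 2.54 TPM treated, an 8.90-fold lower mean (log2 fold change -2.75 ± 0.17, adjusted *p* = 0.000109). In H146 it went from 83.1, 94.5 and 61.4 to 29.8, 37.9, 17.9 and 17.6 TPM (log2 fold change -1.64 ± 0.29). *RAB3C* fell in both as well, by 1.40 in H82 and by 1.92 in H146, where its 4 treated libraries lay between 6.21 and 8.03 TPM against 27.5 to 30.4 TPM untreated. Its fall in H82 was 1.82 without treated replicate 2 and was not called with median of ratios (adjusted *p* = 0.0542), with quantile normalization (-0.47; adjusted *p* = 0.313) or without untreated replicate 1 or 2 (adjusted *p* = 0.0511 and 0.0502). *RAB3D*, the form best known from exocrine and other non-neuronal secretory cells, was the exception in H146, rising from 6.31, 7.95 and 5.16 to 14.8, 14.5, 16.0 and 16.0 TPM (log2 fold change 1.14 ± 0.16, adjusted *p* = 0.000806). In H82 it was at 7.79 ± 1.85 and 6.86 ± 0.26 TPM, and its direction flipped under both other scalings (0.29 and 0.64), the second of which called a rise (adjusted *p* = 0.0427). *RPH3A* went in H146 from 10.9, 10.6 and 7.53 to 0.720, 1.42, 0.259 and 0.193 TPM, a 14.99-fold lower mean and a log2 fold change of -2.74 ± 0.28 (adjusted *p* = 0.000181). In H82 it was at most 0.107 TPM.

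The SNARE proteins drive membrane fusion, and NSF with its adaptors takes the complex apart afterwards. In H82, 5 of the 6 members fell, against 45.5% of all genes. In H146, 3 of 6 fell and none rose, against 15.5% lower and 32.5% higher among all genes. Syntaxin 1A (*STX1A*) fell in both, from 22.8, 17.4 and 21.1 to 6.37, 9.02 and 5.28 TPM in H82 and from 156, 158 and 156 to 59.1, 74.4, 37.8 and 32.0 TPM in H146. No group overlapped, the log2 fold changes were -1.46 and -1.69, and the interval of their difference was -1.04 to 0.59. *SNAP25*, the most abundant SNARE gene in untreated H146, fell there from 177, 147 and 155 to 80.2, 117, 72.4 and 77.8 TPM (log2 fold change -0.89, adjusted *p* = 0.00396). In H82 it fell from 29.4, 33.8 and 30.7 to 12.2, 21.6 and 9.61 TPM (log2 fold change -1.13, adjusted *p* = 0.0114), a call not made with median of ratios (adjusted *p* = 0.0808). The vesicular SNAREs differed between the lines. *VAMP1* fell 6.87-fold in the mean in H82, from 8.47 ± 1.01 to 1.23 ± 0.44 TPM, and was at 8.27 ± 1.39 and 8.31 ± 2.10 TPM in H146. The difference was 2.08 (95% interval 1.42 to 2.75; adjusted *p* = 0.000114). *VAMP2*, the most abundant SNARE gene of untreated H82, fell there from 61.5, 67.5 and 59.6 to 47.5, 22.5 and 24.6 TPM, with adjusted *p* values of 0.0152 as deposited and 0.147 and 0.0542 under the other scalings, and 0.0589 without untreated replicate 2. In H146 it was between 125 and 152 TPM untreated and at 153, 241, 144 and 139 TPM treated. *NAPB*, the brain form of the NSF adaptor SNAP, fell in H82 from 46.6 ± 2.56 to 10.3 ± 3.86 TPM and was at 18.4 ± 2.44 and 17.9 ± 3.48 TPM in H146 (difference 2.07, adjusted *p* = 0.000114). *NSF* itself, which every cell uses, fell in H146 from 54.1 ± 5.42 to 39.7 ± 2.10 TPM, a call lost without untreated replicate 1 or 2 (adjusted *p* = 0.0758 and 0.0510). In treated H82 it was at 13.2 TPM in replicate 1 and at 37.5 and 39.5 TPM in the others.

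Complexins clamp and then promote SNARE-driven fusion. *CPLX1* was the most abundant of the pair in both lines and fell in H82 from 64.2, 46.7 and 59.9 to 6.87, 20.7 and 4.06 TPM. Replicate 2 was the highest treated library, and the log2 fold change was -2.59 ± 0.50 with it (adjusted *p* = 0.00394) and -3.18 without it. In H146 *CPLX1* was at 162, 197 and 175 TPM untreated and 161, 154, 119 and 111 TPM treated. These groups were just apart, but the change did not pass the test (log2 fold change -0.40, adjusted *p* = 0.0679). It passed with median of ratios (-0.72; adjusted *p* = 0.0132) and when treated replicate 1 or 2 was left out (adjusted *p* = 0.0427 and 0.0335). *CPLX2* was at 3.94, 2.45 and 3.58 TPM in untreated H82 and at 2.83, 26.9 and 1.19 TPM in the treated libraries. The high mean of the treated group came from replicate 2 alone, and the log2 fold change turned from 0.53 to -0.56 without it, neither past the threshold. In H146 *CPLX2* was at 56.5 ± 16.3 TPM untreated and 83.4 ± 17.2 TPM treated (adjusted *p* = 0.0563, and 0.0223 without untreated replicate 2).

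The synaptotagmins and *DOC2* genes were listed as 1 family of calcium sensors, though not all of them bind calcium. In H82, 5 of 9 tested fell and none rose, against 45.5% lower and 13.1% higher among all genes. In H146 3 of 10 fell and 3 rose, against 15.5% and 32.5%. The falls in H82 and the rises in H146 were near these shares. Synaptotagmin 1 (*SYT1*), the sensor of fast release, was the most abundant of the family in both untreated lines. It fell in H82 from 58.2, 65.5 and 60.7 to 27.0, 41.4 and 41.4 TPM (log2 fold change -0.76 ± 0.19, adjusted *p* = 0.0134), and this call was not made with median of ratios (-0.27) or without untreated replicate 2 (adjusted *p* = 0.0517). In H146 its groups overlapped, at 125 to 173 TPM untreated and 124 to 238 TPM treated. *SYT4*, a synaptotagmin found on dense-core vesicles, moved furthest apart. In H146 it rose from 122, 121 and 99.8 to 314, 261, 235 and 238 TPM, the highest level of any member in any library. The groups were far apart, with a log2 fold change of 1.19 ± 0.14 (adjusted *p* = 0.000358). In H82 *SYT4* was at 15.7, 19.1 and 15.5 TPM untreated and 1.75, 19.5 and 0.575 TPM treated. Replicates 1 and 3 were far below the untreated libraries and replicate 2 was above them, so that the change did not pass the test (log2 fold change -1.99 ± 0.87, adjusted *p* = 0.0862). Without replicate 2 it was -3.09 (adjusted *p* = 0.00107).

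*SYT14*, a synaptotagmin that does not bind calcium, fell in H82 from 16.0, 22.0 and 16.9 to 2.86, 3.09 and 3.93 TPM and rose in H146 from 10.8, 10.8 and 8.14 to 18.3, 20.7, 15.3 and 16.0 TPM. The groups did not overlap in either line. The log2 fold changes were -2.17 ± 0.20 (adjusted *p* = 0.000276) and 0.77 ± 0.16 (adjusted *p* = 0.00588), and the difference was 2.93 (95% interval 2.40 to 3.47; adjusted *p* = 2.36e-06). Unlike *UNC13A*, *BSN* and *SYNGR1*, it kept both calls under median of ratios and quantile normalization. *SYT7*, a slow sensor of high affinity, fell in both lines, by 1.47 in H82 and by 0.88 in H146. *DOC2B*, which acts in spontaneous and asynchronous release, did so too, from 31.7 ± 7.30 to 9.52 ± 2.40 TPM in H82 and from 6.59 ± 1.33 to 2.00 ± 1.42 TPM in H146. *SYT13* was expressed in H146, where it fell from 35.0 ± 3.23 to 13.5 ± 6.37 TPM, and was at most 0.551 TPM in H82. *SYT11* fell in H82, to 27.5 ± 2.90 from 56.9 ± 1.07 TPM. In treated H146 it stood at 109 and 154 TPM in replicates 1 and 2 and at 66.4 and 67.1 TPM in replicates 3 and 4, around 118 ± 11.2 TPM in the untreated cells. It passed the test there only when treated replicate 2, or both 1 and 2, were left out (-0.57 and -0.80). *SYT5* rose in H146 from 22.6 ± 0.78 to 30.8 ± 3.53 TPM (adjusted *p* = 0.0255), a call not made under either other scaling, nor without any 1 untreated library or treated replicate 1 or 3 (adjusted *p* from 0.0548 to 0.0929). *SYT2* and *DOC2A* passed the test in neither line as deposited. *SYT2* in H82 was called higher with median of ratios (0.70; adjusted *p* = 0.0307) and quantile normalization (1.44; adjusted *p* = 0.00286). *DOC2A* was called lower in H82 without treated replicate 1 (-0.68; adjusted *p* = 0.0480) and higher in H146 without treated replicate 4 (0.52; adjusted *p* = 0.0199).

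CAPS proteins prime dense-core vesicles, the carriers of peptide hormones, and the 2 genes moved in opposite directions in H82. *CADPS* (CAPS1) was the more abundant in untreated H82, at 46.5, 48.2 and 45.7 TPM, and fell to 5.53, 12.0 and 11.8 TPM (log2 fold change -2.22 ± 0.28, adjusted *p* = 0.000747). Its H146 means were 9.34 ± 1.62 TPM untreated and 9.66 ± 2.42 TPM treated. *CADPS2* (CAPS2) rose in H82 from 3.53, 3.84 and 4.80 to 7.45, 12.9 and 8.66 TPM (log2 fold change 1.05 ± 0.24, adjusted *p* = 0.00851), and without replicate 2 by 0.84 (adjusted *p* = 0.0219). In H146 *CADPS2* was the more abundant beforehand, at 23.0, 20.0 and 17.2 TPM, and fell to 3.36, 2.16, 9.96 and 11.5 TPM (log2 fold change -1.67 ± 0.47, adjusted *p* = 0.0182). The call was lost without any 1 untreated library (adjusted *p* from 0.0531 to 0.0657). Here replicates 1 and 2 were the lower pair. Leaving them out gave -0.84 (adjusted *p* = 0.00199), and leaving out 3 and 4 gave -2.50 (adjusted *p* = 0.000273). The difference between the lines was 2.24 for *CADPS* and -2.72 for *CADPS2*, both past the threshold (adjusted *p* = 0.000242 and 0.00201).

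Vesicle membrane is recovered by endocytosis, and dynamin 1 (*DNM1*), the neuronal dynamin that pinches the bud off, was the most abundant of the 3 genes listed. It fell in H82 from 68.9, 57.1 and 68.0 to 17.8, 8.62 and 15.03 TPM and in H146 from 86.5, 89.6 and 73.5 to 52.3, 55.4, 43.7 and 36.5 TPM. The groups were apart in both lines, and the fall was larger in H82 by 1.38 on the log2 scale (95% interval 0.69 to 2.06; adjusted *p* = 0.00246), a difference that was not called with median of ratios (0.59). *SNAP91* encodes the neuronal clathrin adaptor AP180 and rose in H146 from 13.5, 12.3 and 12.3 to 25.2, 22.6, 20.0 and 22.1 TPM (log2 fold change 0.77 ± 0.13, adjusted *p* = 0.00177). Amphiphysin (*AMPH*) was at 4.19 ± 0.90 and 6.67 ± 1.59 TPM in H146 and just missed the threshold (adjusted *p* = 0.0578).

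**Figure D3:**
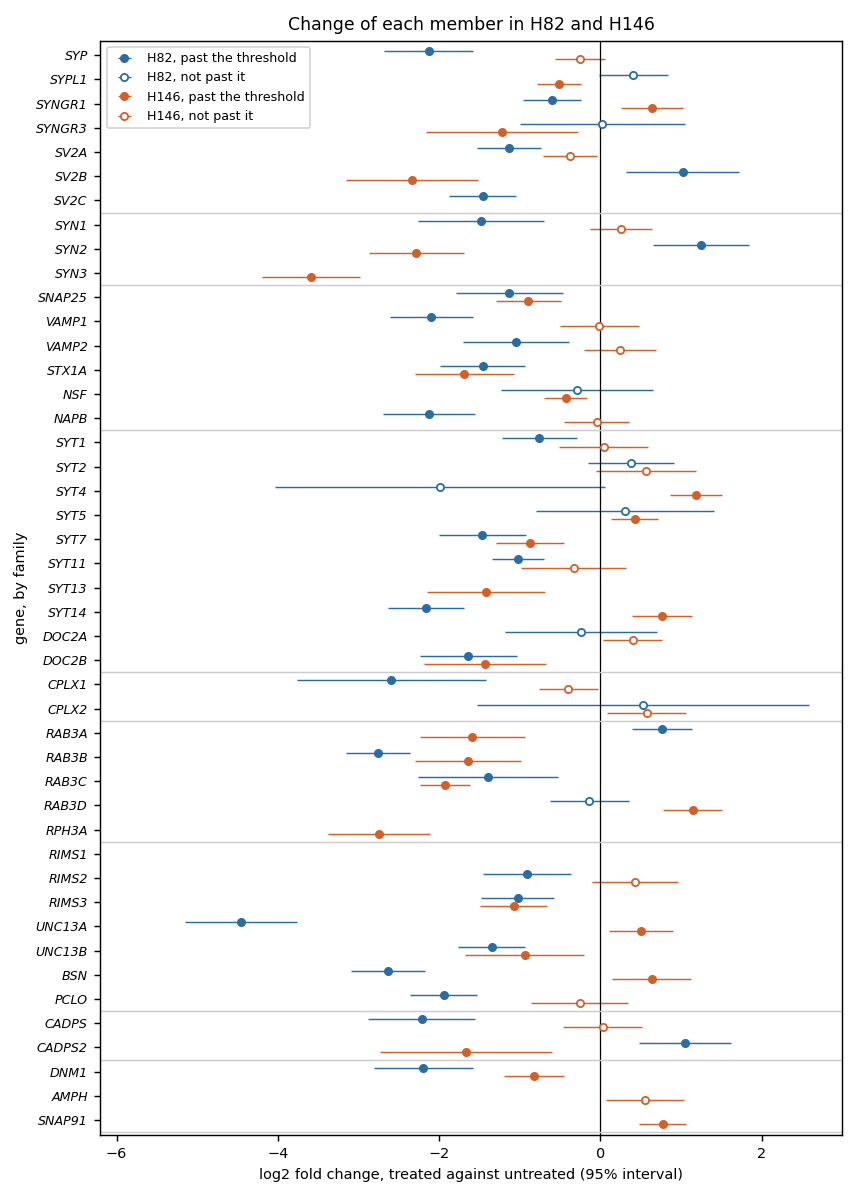
Log2 fold change of each member, treated against untreated on the log2(TPM + 1) scale, with 95% intervals, in rows by family, for H82 (blue) and H146 (orange). Filled points passed an adjusted *p* of 0.05, and members under the filter on low values have no point. H82 points run from -4.45 (*UNC13A*) to 1.25 (*SYN2*) and H146 points from -3.59 (*SYN3*) to 1.19 (*SYT4*).

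The filter of 1 TPM in at least 3 libraries left out 6 members in H82 (*SYN3*, *SYT13*, *RPH3A*, *RIMS1*, *AMPH* and *SNAP91*) and 2 in H146 (*SV2C* and *RIMS1*). A gene can pass it through the group in which it is high, so the counts cover the tested members only. Those in H82 with 0.5 TPM or more in any library were compared by an exact two-sided permutation test, whose smallest *p* with 3 libraries against 3 is 0.1. *AMPH* was at 0.749, 0.828 and 0.3995 TPM untreated and 1.53, 5.54 and 0.973 TPM treated, with the highest value in replicate 2, and *SNAP91* at 0.0865, 0.0780 and 0.185 TPM untreated and 0.719, 1.13 and 0.192 TPM treated. Each gave the smallest *p*, 0.1, as did *SYN3*, which was lower in the treated libraries, and *SYT13* gave an exact *p* of 0.9.

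Of the 38 members tested in both lines, 9 fell in both (23.7%) and none rose in both, against 4.43% and 4.83% of the 15679 genes tested in both. The 9 were *SNAP25*, *STX1A*, *SYT7*, *DOC2B*, *RAB3B*, *RAB3C*, *RIMS3*, *UNC13B* and *DNM1*. In some fit with another setting or 1 library left out, *SNAP25*, *RAB3C* and *RIMS3* lost the H82 call. *UNC13B* likewise lost the H146 call, and the rest kept both calls in every such fit. A further 12 fell in H82 and did not pass the test in H146 (31.6%, against 20.8% of all genes), and 8 carried opposite calls (21.1%, against 15.5%). Among these 38 the response differed between the lines for 23, with the change higher in H146 for 18 and lower for 5. The joint fit tested 44 members, some of which passed its filter through 1 line only. A gene near 0 in a line cannot fall there, so a difference for such a member follows from its level. Over the 44 the response differed for 27, higher in H146 for 19 and lower for 8. Over all 24374 genes tested the difference was called higher for 46.0% and lower for 13.3%, so the members' shares of 43.2% and 18.2% were near the background. With median of ratios 12 members were higher and 11 lower, against 30.7% and 25.4% of all genes. With quantile normalization 13 were higher and 13 lower, against 24.9% and 25.3% of all genes. The members with the largest differences were *UNC13A*, *SYN2*, *SV2B*, *BSN* and *SYN3*, all of which were called under these scalings too. *SYN3* was at most 0.526 TPM in H82, so its value is the fall in H146. Opposite calls were kept by 5 of the 8 members under median of ratios and by 5 under quantile normalization, in both cases *SYT14*, *SYN2*, *SV2B*, *RAB3A* and *CADPS2*. With no filter on low values 5 kept them, and *SV2B*, *UNC13A* and *BSN* did not. Several falls in H82 kept their call but were smaller with quantile normalization, at -1.73 for *BSN*, -1.16 for *VAMP1*, -0.97 for *PCLO*, -0.96 for *SYT7*, -0.89 for *STX1A* and -0.77 for *UNC13B*. With median of ratios *SV2A* was at -0.65 and *SYT11* at -0.55 there, still called.

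In every treated library most members tested were below their untreated mean, as were most of all genes tested in H82 but not in H146. In H82, 30, 29 and 32 of 39 members were below it in replicates 1, 2 and 3, with medians of -1.37, -0.95 and -1.42 on the log2(TPM + 1) scale. In H146, 24, 24, 26 and 27 of 43 members were below it in replicates 1 to 4, with medians of -0.16, -0.23, -0.50 and -0.46. The medians of all genes tested were -0.64, -0.56 and -0.50 in H82 and 0.21, 0.19, 0.30 and 0.28 in H146. In each of the 7 treated libraries the median over the members was below the median over all genes tested, by 0.39 to 0.93 in H82 and by 0.37 to 0.80 in H146. Without treated H82 replicate 2, 27 members fell and 4 rose, against 41.4% lower and 10.5% higher among all genes. Without treated H146 replicates 1 and 2, 23 fell and 7 rose, against 21.7% and 43.1% of all genes. Without replicates 3 and 4, 18 fell and 10 rose, against 15.2% and 27.7%.

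**Figure D4:**
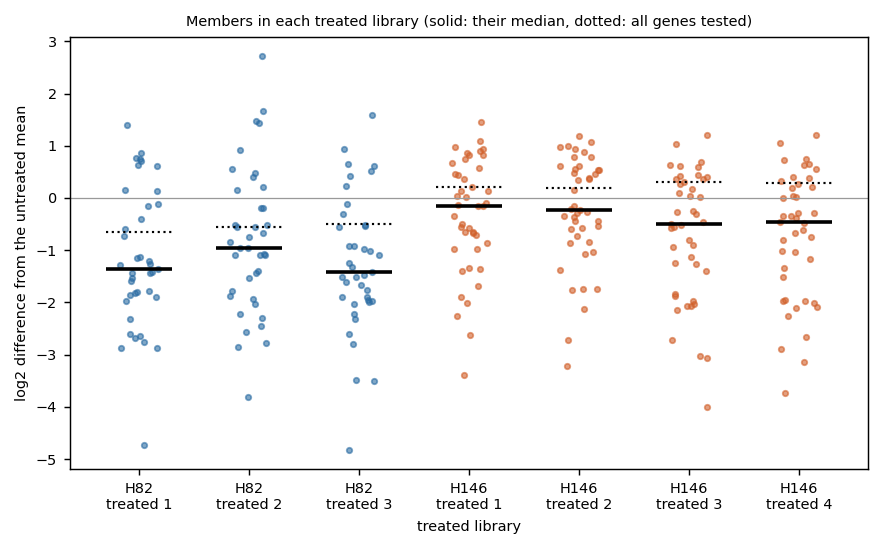
Difference of each tested member from the mean of its line's untreated libraries, on the log2(TPM + 1) scale, for each treated library. Points are members, spread sideways for legibility, the solid bar is their median, and the dotted bar is the median of all genes tested, which lies above the solid bar in all 7 libraries.

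Related genes were read from further lists. A list of 35 other genes of neuronal release (further isoforms, vesicular transporters and active zone proteins) had 24 tested in H82, of which 9 fell and 4 rose, and 23 tested in H146, of which 6 fell and 4 rose. Their medians were -0.35 in H82 and -0.01 in H146 on the log2 scale. Of all genes tested, 45.5% were lower and 13.1% higher in H82, with a median of -0.56. In H146 15.5% of all genes were lower and 32.5% higher, with a median of 0.25. The largest fall in H82 was in *SLC17A7*, the vesicular glutamate transporter VGLUT1, from 23.1 ± 3.19 to 1.07 ± 0.67 TPM (log2 fold change -3.58, adjusted *p* = 0.000153), and the largest rise was in *CPLX4*, from 0.282 ± 0.103 to 3.64 ± 0.88 TPM. *CPLX4* passed the filter in H82 through its treated libraries only, so a fall could not have been found there. In H146 synaptoporin (*SYNPR*), another synaptophysin relative, fell most, from 50.8 ± 3.79 to 16.2 ± 9.80 TPM, and *RIMS4* rose most, from 11.3 ± 1.04 to 29.0 ± 6.34 TPM. A list of 33 trafficking genes, of secretion and endocytosis, was drawn up as widely expressed, though *UNC13D* was under the filter in H146. It had 10 of 32 lower and 7 higher in H82 and 3 of 31 lower and 7 higher in H146. Its medians were -0.12 and 0.11. The medians of both lists were above that of all genes in H82 and below it in H146. *VAMP8*, a SNARE of non-neuronal secretion, rose most in H82, from 1.26 ± 1.17 to 11.8 ± 3.23 TPM, and *UNC13D*, the priming factor of lymphocyte granules, fell most, from 10.3 ± 1.23 to 0.792 ± 0.247 TPM. In H146 dynamin 2 (*DNM2*) fell most, from 127 ± 3.25 to 81.0 ± 6.34 TPM, and the active zone scaffold *ERC1* rose most, from 11.1 ± 2.88 to 28.9 ± 4.17 TPM.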

How the data were processed

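RNA-seq was read in 13 libraries of H82 and H146 cells. The authors trimmed reads with Trim Galore 0.4.4 and mapped them with STAR to hg38 with GENCODE release 28, per the submitters' processing notes and the study's methods, and deposited 1 table of TPM per line. Each library sums to 1000000, and no further scaling between libraries is in the values. Reads per library are not given in the sources used here, so no counting intervals were drawn. Where the replicate libraries came from is not stated, and *p*-values measure the spread between these libraries, which may be technical.

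Each line was fitted with limma 3.58.1 in R 4.3.3 (lmFit, eBayes with trend) on log2(TPM + 1), treated against untreated, for genes with at least 1 TPM in 3 or more libraries. Tests were two-sided, adjusted by Benjamini-Hochberg over all genes tested, with a threshold of 0.05. The lines were compared by the interaction in 1 fit over all libraries. The scripts were tested on simulated data. Values are mean ± SD of TPM. Loci are from GENCODE release 44 and promoters from RefSeq (GRCh38.p14).

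Members, lists and tests were chosen with earlier results of these data known. Members were named as the 5 largest falls and 5 largest rises per line with separate groups, opposite calls, the 5 largest differences between lines, and the most abundant gene of each family; others named were chosen after their values were seen. Alternatives were a pseudocount of 0.1, no filter, 2 scalings, eBayes without trend, the replicate block, and leaving out libraries; those leaving out pairs of treated H146 libraries were chosen after seeing the data.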

Additional observations from a re-analysis of the deposited data

Results flagged for a closer look

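Among 43 groups of 4 treated H146 libraries, 1 per tested member, the gap of *VAMP2* replicate 2, at 240.8 TPM, to the next library was too large a part of the group's range by Dixon's criterion. Chance gives about 1 such group in 20. The other 3 libraries lay between 139 and 153 TPM.

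The change differed between the lines, by the interaction in the fit over all libraries, for 27 members. Values are the H146 change minus the H82 change on the log2 scale. Among vesicle membrane proteins they were 1.87 for *SYP*, -0.92 for *SYPL1*, 1.24 for *SYNGR1*, 0.76 for *SV2A*, -3.36 for *SV2B* and 1.49 for *SV2C*. The synapsins gave 1.74 for *SYN1*, -3.53 for *SYN2* and -3.24 for *SYN3*. *SYN3*, *SV2C*, *SYT13* and *RPH3A* were expressed in only 1 of the lines, so that their value is the fall in that line with a level near 0 in the other. SNARE genes gave 2.08 for *VAMP1*, 1.29 for *VAMP2* and 2.07 for *NAPB*, and synaptotagmins gave 3.18 for *SYT4*, -1.53 for *SYT13* and 2.93 for *SYT14*. *CPLX1* gave 2.19. Of the RAB3 genes and rabphilin, *RAB3A* was at -2.36, *RAB3B* at 1.11, *RAB3D* at 1.28 and *RPH3A* at -2.79. Active zone and priming genes gave 1.34 for *RIMS2*, 4.95 for *UNC13A*, 3.27 for *BSN* and 1.69 for *PCLO*. *CADPS* was at 2.24, *CADPS2* at -2.72 and *DNM1* at 1.38. Under both other scalings 8 of the 8 negative and 10 of the 19 positive differences were called.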

How the results depend on the processing

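The median log2 fold change of all genes was -0.56 in H82 and 0.25 in H146 as deposited, -0.14 and -0.02 with median of ratios, and 0.01 and 0.06 with quantile normalization. Members called higher in H82 numbered 7 with quantile normalization, against 4, and those higher in H146 numbered 4 under each of these scalings, against 8. For the H146 change minus the H82 change, 12 members were higher with median of ratios, against 19, and 13 were lower with quantile normalization, against 8. The other scaling counts were 21 and 19 lower in H82, 6 higher in H82 with median of ratios, 22 and 19 lower in H146, 11 lower with median of ratios and 13 higher with quantile normalization for the difference. Over all genes the difference was called higher for 30.7% and lower for 25.4% with median of ratios. With quantile normalization these shares were 24.9% and 25.3%. Over all fits with another setting or 1 library left out, 17 of 26 falls and 3 of 4 rises in H82 were called each time, and 15 of 19 falls and 4 of 8 rises in H146. The causes of the lost calls were not tested. Leaving out 1 library gave 23 to 27 lower and 3 to 5 higher in H82, 15 to 22 lower and 4 to 8 higher in H146, and 8 to 9 lower and 18 to 21 higher for the difference. Over all genes these ranges were 38.5% to 50.4% and 9.52% to 19.3% in H82 and 11.3% to 19.1% and 22.5% to 38.6% in H146. For the difference they were 11.7% to 14.6% and 41.5% to 47.7%. The count of 4 members higher in H146 came without untreated H146 replicate 3.

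A fit with the replicate block gave 27 lower and 4 higher in H82, 18 lower and 6 higher in H146, and 8 lower and 21 higher for the difference. All genes called lower and higher were then 43.6% and 11.8% in H82 and 12.1% and 24.2% in H146. For the difference they were 11.7% and 42.2%. Deviations of same-numbered libraries from their group means had correlations of 0.03, 0.01 and -0.04 in H82 and -0.11, -0.06 and 0.01 in H146. No shared deviation was seen, but with so few libraries this cannot settle whether the numbers pair them, and the labels do not say. With the replicate block the H146 calls of *BSN* (adjusted *p* = 0.0781), *NSF* (0.0736) and *SYT5* (0.0620) were not made, *SYT4* was called lower in H82 (adjusted *p* = 0.0350), and the sign turned for *VAMP1* (0.14), *NAPB* (0.034) and *CADPS* (-0.070) in H146 and for the difference in *RIMS3* (0.036). No untreated H146 library is numbered 4, so the block takes treated replicate 4 out of the H146 estimate. The turned values were the same in the fit without that replicate, so they are not an effect of pairing.

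Directions turned only for values that had not passed the threshold, except *RIMS2* in H82 and *SV2A* in the difference between the lines. With median of ratios the values with a turned sign were *NSF* 0.18, *DOC2A* 0.17 and *RAB3D* 0.29 in H82, *SYN1* -0.051, *VAMP2* -0.077, *SYT1* -0.28 and *CADPS* -0.26 in H146, and *SV2A* -0.047 for the difference. With quantile normalization they were *DOC2A* 0.71, *RAB3D* 0.64 and *RIMS2* 0.22 in H82 and *CADPS* -0.25 in H146. With a pseudocount of 0.1 *SYNGR3* was at -0.17 in H82. Leaving out treated H146 replicates 3 and 4, a choice made after seeing the data, gave *VAMP1* 0.20, *NAPB* 0.18, *SYT11* 0.14 and *CADPS* -0.26, and leaving out 1 and 2 gave *SYT1* -0.30. Leaving out 1 library gave ranges across 0 in H82 for *SYNGR3* (-0.27 to 0.50), *NSF* (-0.56 to 0.20), *SYT5* (-0.25 to 0.61), *DOC2A* (-0.68 to 0.053), *CPLX2* (-0.56 to 1.28) and *RAB3D* (-0.30 to 0.0084). In H146 it did so for *VAMP1* (-0.14 to 0.14), *NAPB* (-0.15 to 0.034), *SYT1* (-0.15 to 0.16) and *CADPS* (-0.11 to 0.15), and for the difference in *RIMS3* (-0.16 to 0.10). Of 15 further differences between the lines that were not called and are not given, 11 turned sign under a rescaling and 4 were called under one. With no filter on low values all 45 members were tested, and 26 were lower and 3 higher in H82 and 17 lower and 6 higher in H146. All genes called lower and higher were then 25.9% and 6.45% in H82 and 7.57% and 14.4% in H146. The calls lost there were *SV2B* in H82 (adjusted *p* = 0.0585) and *SYNGR3* (0.0889), *UNC13A* (0.0781), *UNC13B* (0.0901) and *BSN* (0.0728) in H146. Reads per library are unknown, so the depth behind the low values cannot be given.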
